A study of Mus musculus with 18 samples.

Results

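The genes described here encode solute carriers of the renal proximal tubule other than those of the Slc22 family, with the adaptor Slc9a3r1 among them. A list of 36 such genes was named by substrate and membrane, with earlier results of these data known. Of the 36, 32 had a probe set that the platform annotation pairs with that symbol alone, of 12393 genes measured in this way. The 4 others (Slc34a3, Slc6a19, Slc5a12 and Slc9a3) were not analysed here. Where a gene had several such probe sets, as 11 members did, the one with the highest mean log2 intensity over all arrays stood for it. The lists of other genes used below were also chosen with earlier results known. A count set beside the share over all genes is therefore a description and no test.

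Kidney RNA was measured on Affymetrix Mouse430A_2 arrays in 6 groups of 3 arrays, 18 in all. The groups were TIMP3-/- UUO, TIMP3-/- sham, TIMP2-/- UUO, TIMP2-/- sham, WT UUO and WT sham, all on the C57BL/6 strain. UUO is unilateral ureteral obstruction: the right ureter was tied, and the kidney of that side was taken at 3 days. Sham mice had the operation without the tie, and their kidney of the same side was taken. TIMP2 and TIMP3 are tissue inhibitors of metalloproteinases. How the knockouts were made, and the age of the mice, are not given in the sources used here. The samples are biological replicates per the labels, and an array is named by its group and number, such as WT UUO 2.

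The proximal tubule recovers most of the filtered glucose, phosphate, amino acids, carboxylates and bicarbonate. Apical carriers, many driven by the sodium gradient, take a solute up from the filtrate, and basolateral carriers pass it on to the blood or bring organic ions in for secretion. Several of these proteins work in pairs, such as a light chain that moves the amino acid and a heavy chain that brings it to the membrane.

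Intensities are RMA values on a linear scale, and differences are in log2 with the standard error (SE) of a limma fit over all arrays. A gene passed at a Benjamini-Hochberg adjusted p below 0.05 over the 12393 genes. Probe sets differ in brightness for reasons other than transcript number, so no level of 1 carrier is set against that of another. With 3 arrays against 3, an exact 2-sided permutation test of a single gene cannot go below 0.1, so each call rests on the spread pooled over the groups. In whole kidney RNA, fewer cells of a type and less RNA per cell cannot be told apart.

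The arrays were checked before use. Timp3 read 35.14 to 60.81 on the TIMP3-/- arrays, against 4260 to 9040 on the WT arrays, and the 25th percentile of an array was 56.8 to 64.2. Timp2 read 570.8 to 897.1 on the TIMP2-/- arrays, against 970.6 to 4689 on the WT arrays, where obstruction raised it by 1.83. The TIMP2-/- minus WT difference was -2.32 in UUO kidneys (limma, adjusted p = 1.2e-06). In sham kidneys it was -0.86 and did not pass (limma, adjusted p = 0.131). Timp2 therefore checks the TIMP2-/- labels only weakly. On the sham arrays 14 other proximal tubule markers summed to 188460 to 198900. All arrays are of kidney, so this sum cannot test whether the members belong to the proximal tubule. WT UUO 2 stood apart by hepatocyte transcripts: the albumin gene Alb read 28106 on it, while WT UUO 1 had 72.66 and WT UUO 3 had 254. WT sham 3 (-60) and TIMP3-/- UUO 2 (-40.7) stood apart on the second principal component, which carried 15.5% of the variance. At the other end of that component lay TIMP2-/- sham 3 (33.3) and TIMP2-/- UUO 3 (32.8). Main counts and many single values are given with and without WT UUO 2, WT sham 3 and TIMP3-/- UUO 2, called the 3 arrays that stood apart. Leaving these 3 out keeps every TIMP2-/- array, so it is no even check of the genotypes.

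Obstruction lowered most of the carriers in every genotype. In TIMP3-/- kidneys 27 of the 32 members fell and none rose, where 38.8% of all genes fell. In TIMP2-/- kidneys 24 fell and Slc13a1 rose, where 22% of all genes fell. In WT kidneys 26 fell and none rose, where 16.2% of all genes fell. The median difference of the 32 was -1.91 in TIMP3-/-, -1.10 in TIMP2-/- and -1.28 in WT, against -0.19, -0.12 and -0.09 over all genes. Every UUO array lay below every sham array for 27 members in TIMP3-/- (39.5% of all genes), 28 in TIMP2-/- (33.2%) and 26 in WT (26.7%). Without the 3 arrays that stood apart, 28 members passed in TIMP3-/-, 26 in TIMP2-/- and 22 in WT.

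The fall was shared by all 3 genotypes for 22 of the 32 members, where 11% of all genes fell in each of the 3. Slc1a1, Slc3a2 and Slc9a3r1 fell in 2 genotypes. Slc5a1, Slc6a6, Slc5a8, Slc16a1 and Slco1a6 fell in 1 genotype, and Slc20a2 and Slc13a1 in none. The 3 comparisons of UUO with sham share no arrays.

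**Figure D1:**
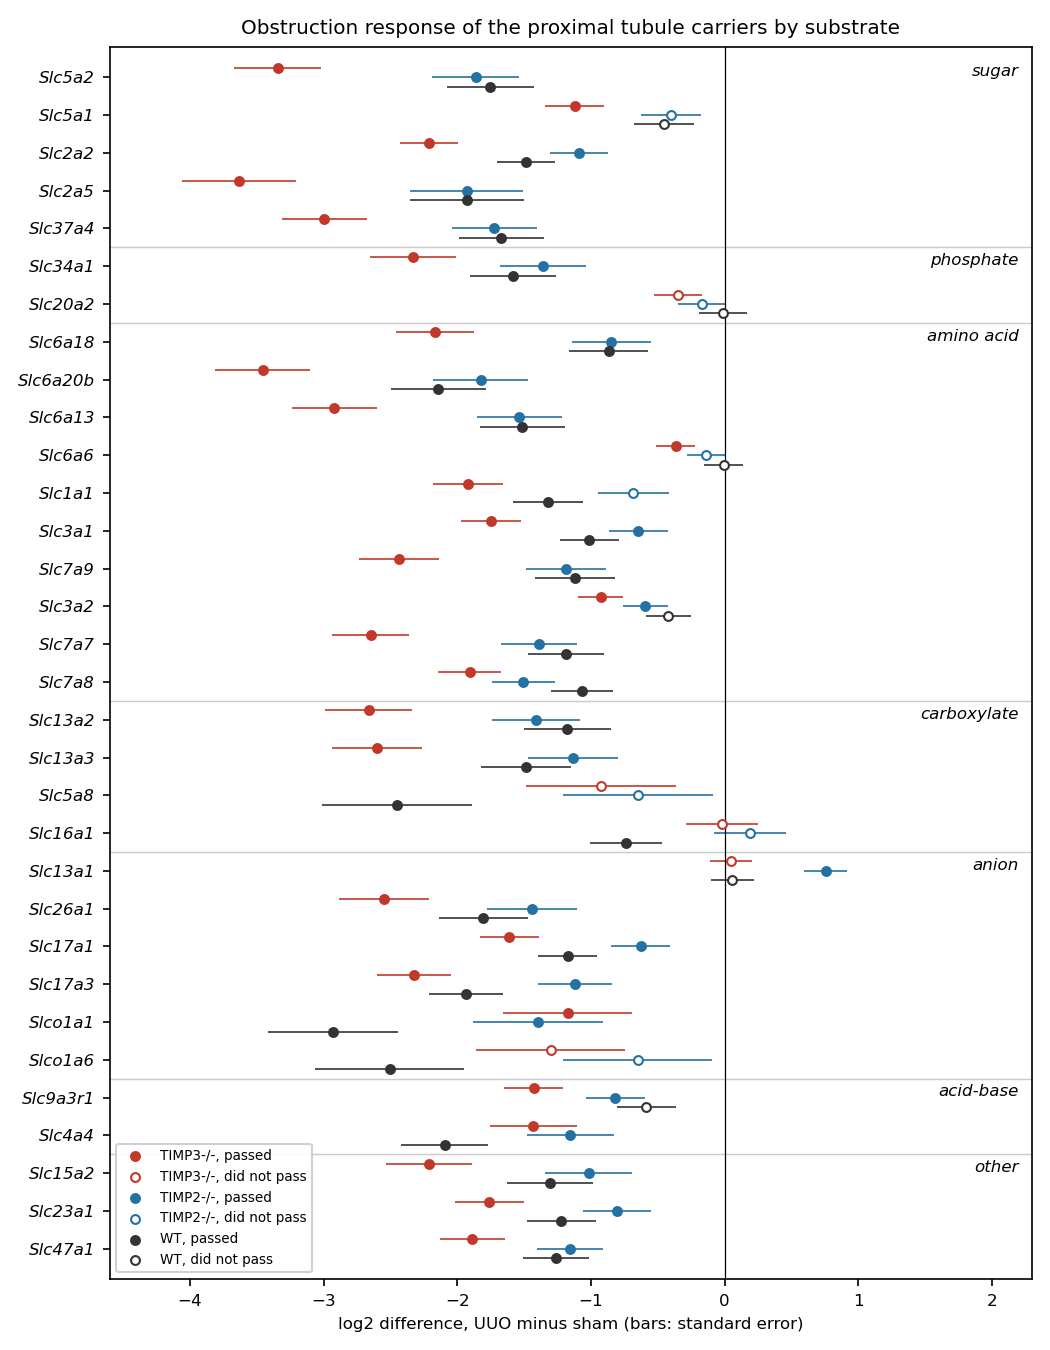
Log2 difference between UUO and sham kidneys (x axis) for the 32 members (y axis, grouped by substrate) in TIMP3-/-, TIMP2-/- and WT mice, from 3 UUO and 3 sham arrays each. Bars are standard errors of the limma fit, filled points passed at an adjusted p below 0.05, and nearly all points lie left of 0, with Slc13a1 in TIMP2-/- the filled point to its right.

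Markers of other cell types and of tubular injury moved with this fall. Summed over 14 macrophage markers, intensity was 71441 to 102960 in TIMP3-/- UUO kidneys against 10194 to 13058 in TIMP3-/- sham kidneys, 57157 to 57582 in TIMP2-/- UUO kidneys against 9974.5 to 12147 in TIMP2-/- sham kidneys, and 46983 to 85457 in WT UUO kidneys against 6785.2 to 9702.4 in WT sham kidneys. All 14 rose in each genotype. The 12 measured tubular injury markers all rose too, and their sum was 87898 to 99470 in TIMP3-/- UUO kidneys against 14856 to 17655 in TIMP3-/- sham kidneys. Markers of the distal nephron fell: 10 of 11 in TIMP3-/-, 8 in TIMP2-/- and 7 in WT. Of 5 adipocyte markers 4, 1 and 4 rose, of 4 adrenal cortex markers 4, 3 and 1 fell, and of 16 hepatocyte markers 4, 2 and 1 fell while 1 rose in WT (in TIMP3-/-, TIMP2-/- and WT in that order). The 4 adrenal cortex markers were dim: together they summed to 285.2 to 579 on an array, where the 25th percentile of an array was 56.8 to 64.2. Over all 12393 genes, 4814 fell and 3187 rose in TIMP3-/-. In TIMP2-/- 2723 fell and 1969 rose, and in WT 2008 fell and 2078 rose. The part of other cells and of tubular injury in the carriers' fall was not tested.

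Promoter sequence was read for the members because so many moved together. Of the 32, 25 had a promoter in the RefSeq table of assembly GRCm38.p6, with 250 bases before each start. Each was searched on both strands, with at most 2 mismatches, for the repeat of AGGTCA in 1 direction with 1 free base between the copies, bound by HNF4A and other nuclear receptors. A match was found in 5 members (Slc6a13, Slco1a1, Slc37a4, Slc17a1 and Slc15a2), where 3.72% of 27025 genes held one.

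The 5 matches are shown aligned, 5′ to 3′ on the strand of the gene, with the match in capitals. In Slc37a4 and Slc17a1 the repeat reads along the gene, and in Slc6a13, Slco1a1 and Slc15a2 it reads on the opposite strand. The match begins 231 (Slc6a13), 134 (Slco1a1), 134 (Slc37a4), 234 (Slc17a1) and 51 (Slc15a2) bases before a start in the table. The windows lie at chr6:121303400-121303429 (Slc6a13, plus strand), chr6:141947075-141947104 (Slco1a1, minus strand), chr9:44396804-44396833 (Slc37a4, plus strand), chr13:23868776-23868805 (Slc17a1, plus strand) and chr16:36784992-36785021 (Slc15a2, minus strand) of GRCm38.p6.
Slc6a13: tagaatcaTAATCTTTGACCTtcatggctt
Slco1a1: aatgagatTGACCTATGATCTagcatgtag
Slc37a4: tcgacgaaACGTAATAGGTCAtgtggtgct
Slc17a1: ttgaaggtAGGTACTAGGTCAgtagttaca
Slc15a2: tcatctcgTGACTTGTGACGTgttgttctt
The Slco1a1 match has 1 mismatch and each of the others has 2. Such a match is a run of letters and not a measured binding site. For the context of the match, the 250 bases before the listed Slco1a1 start (chr6:141946963-141947212, minus strand) and before the listed Slc37a4 start (chr9:44396696-44396945, plus strand) are printed in full.
Slco1a1: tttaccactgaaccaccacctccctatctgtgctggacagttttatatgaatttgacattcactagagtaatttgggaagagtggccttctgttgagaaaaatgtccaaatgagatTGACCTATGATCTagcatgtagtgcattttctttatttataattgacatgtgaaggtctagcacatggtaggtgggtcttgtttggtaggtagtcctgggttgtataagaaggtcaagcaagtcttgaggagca
Slc37a4: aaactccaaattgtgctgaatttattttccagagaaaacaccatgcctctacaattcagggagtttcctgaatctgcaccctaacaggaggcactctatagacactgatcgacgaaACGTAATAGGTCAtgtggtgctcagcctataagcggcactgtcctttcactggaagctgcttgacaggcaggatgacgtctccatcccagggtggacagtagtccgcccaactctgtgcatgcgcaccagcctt

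All 5 sugar carriers fell in TIMP3-/- kidneys, and all but Slc5a1 fell in TIMP2-/- and in WT kidneys. Slc5a2 (SGLT2) takes up most filtered glucose with sodium in the early tubule. Its intensity was 864.5, 912.2 and 1386 in TIMP3-/- UUO kidneys, against 9049, 11964 and 10530 in TIMP3-/- sham kidneys. It was 2819, 3136 and 5573 in TIMP2-/- UUO kidneys, against 12809, 12720 and 14550 in TIMP2-/- sham kidneys. The WT values were 3140, 1646 and 5079 in WT UUO kidneys, against 10136, 10848 and 9134 in WT sham kidneys. No UUO array reached a sham array in any genotype, and the 3 TIMP3-/- UUO arrays were below all other UUO arrays. The log2 differences were -3.34 ± 0.33 in TIMP3-/-, -1.86 ± 0.33 in TIMP2-/- and -1.75 ± 0.33 in WT (limma, adjusted p = 2.07e-06, 0.000709 and 0.000838). Without WT UUO 2 the WT difference was -1.33.

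Slc2a5 (GLUT5) carries fructose. It had 134.7, 161.9 and 238.3 in TIMP3-/- UUO kidneys, against 1736, 2379 and 2402 in TIMP3-/- sham kidneys. The TIMP2-/- values were 470.2, 509.4 and 941.8 in TIMP2-/- UUO kidneys, against 2063, 2336 and 2592 in TIMP2-/- sham kidneys. In WT they were 442.9, 166.1 and 810.5 in WT UUO kidneys, against 1580, 1788 and 1164 in WT sham kidneys. The groups did not overlap within a genotype, and WT UUO 2 was the lowest WT array. The differences were -3.63 ± 0.43 in TIMP3-/-, -1.93 ± 0.43 in TIMP2-/- and -1.93 ± 0.43 in WT, the first with an adjusted p of 7.66e-06 (limma). Without WT UUO 2 the WT difference was -1.31.

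Slc37a4, whose promoter is printed above, moves glucose 6-phosphate into the endoplasmic reticulum, a step of glucose production. It had 949.6, 748.8 and 1370 in TIMP3-/- UUO kidneys, against 7002, 8318 and 8453 in TIMP3-/- sham kidneys. The TIMP2-/- kidneys read 2314, 2340 and 3901 in TIMP2-/- UUO kidneys, against 8780, 8925 and 9666 in TIMP2-/- sham kidneys. The WT kidneys read 2016, 1326 and 3973 in WT UUO kidneys, against 7646, 7217 and 6184 in WT sham kidneys. Every UUO array was below every sham array, with the third array of each UUO group the highest of its group. The differences were -2.99 ± 0.32 in TIMP3-/-, -1.72 ± 0.32 in TIMP2-/- and -1.67 ± 0.32 in WT (limma, adjusted p = 3.39e-06, 0.000997 and 0.000933).

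Slc2a2 (GLUT2), the basolateral exit of glucose, averaged 1327 ± 272.8 in TIMP3-/- UUO kidneys and 6060 ± 300.4 in TIMP3-/- sham kidneys (SD, n = 3). Its differences were -2.21 ± 0.22 in TIMP3-/-, -1.09 ± 0.22 in TIMP2-/- and -1.48 ± 0.22 in WT. Slc5a1 (SGLT1), which takes up the glucose left in the late tubule, averaged 802.8 ± 246 in TIMP3-/- UUO kidneys and 1705 ± 204.1 in TIMP3-/- sham kidneys (SD, n = 3), a difference of -1.12 ± 0.22 (limma, adjusted p = 0.000647). It did not pass in TIMP2-/- (-0.40 ± 0.22) or in WT (-0.45 ± 0.22), although it passed in WT without WT UUO 3 (-0.66, adjusted p = 0.0382).

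**Figure D2:**
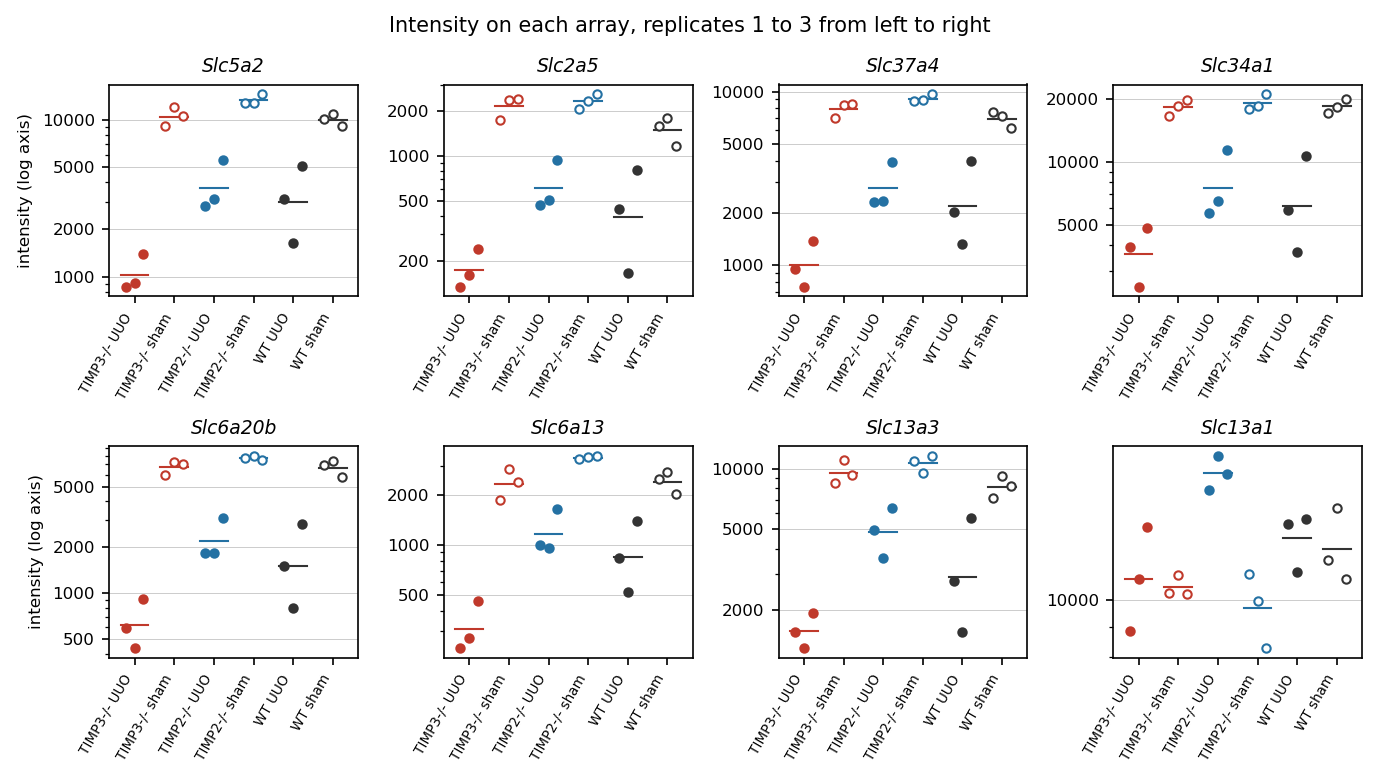
Intensity on a log axis on each of the 18 arrays for 8 members. Filled points are UUO arrays and open points sham arrays, bars mark the geometric mean of 3 arrays, and the TIMP3-/- UUO mean is the lowest of the 6 in every panel but that of Slc13a1.

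Of the phosphate carriers, Slc34a1 fell in each genotype and Slc20a2, on its brightest probe set, in none. Slc34a1 (NaPi-IIa) is the main apical sodium phosphate cotransporter and the one that parathyroid hormone withdraws from the membrane. It had 3928, 2532 and 4819 in TIMP3-/- UUO kidneys, against 16643, 18479 and 19870 in TIMP3-/- sham kidneys. The TIMP2-/- values were 5683, 6535 and 11360 in TIMP2-/- UUO kidneys, against 18045, 18640 and 21156 in TIMP2-/- sham kidneys. The WT values were 5924, 3717 and 10717 in WT UUO kidneys, against 17233, 18390 and 19981 in WT sham kidneys. UUO and sham arrays did not overlap, but the UUO arrays spread widely, with the third of each group the highest. The differences were -2.33 ± 0.32 in TIMP3-/-, -1.36 ± 0.32 in TIMP2-/- and -1.58 ± 0.32 in WT (limma, adjusted p = 3.21e-05, 0.00547 and 0.00169).

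Slc20a2 (PiT-2), an apical phosphate carrier of another family, ranged from 631.9 to 949.5 in TIMP3-/- UUO kidneys, against 852.9 to 1117 in TIMP3-/- sham kidneys, and these ranges overlapped. Its differences were -0.35 ± 0.18 in TIMP3-/-, -0.17 ± 0.18 in TIMP2-/- and -0.01 ± 0.18 in WT (limma, adjusted p = 0.102, 0.471 and 0.972). Without TIMP3-/- UUO 3 the TIMP3-/- difference was -0.52 and passed (adjusted p = 0.0216). A dimmer second probe set differed by -0.73 in TIMP3-/- (limma over all probe sets, adjusted p = 0.00115), so the probe sets of Slc20a2 disagreed. On the dimmer one every UUO array lay below every sham array in each genotype. It had 297.5, 238.9 and 305.3 in WT UUO kidneys, against 387.8, 334 and 318.8 in WT sham kidneys.

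All 10 amino acid carriers fell in TIMP3-/- kidneys, 8 in TIMP2-/- and 8 in WT. Slc6a20b, a close relative of the imino acid transporter SIT1, had 586.6, 434.6 and 907.7 in TIMP3-/- UUO kidneys, against 5997, 7287 and 6991 in TIMP3-/- sham kidneys. In TIMP2-/- it had 1844, 1834 and 3106 in TIMP2-/- UUO kidneys, against 7743, 7995 and 7519 in TIMP2-/- sham kidneys. In WT it had 1505, 796.4 and 2849 in WT UUO kidneys, against 6942, 7342 and 5767 in WT sham kidneys. UUO and sham arrays did not overlap in any genotype. Its differences of -3.46 ± 0.36 in TIMP3-/-, -1.82 ± 0.36 in TIMP2-/- and -2.14 ± 0.36 in WT were the largest of the class (limma, adjusted p = 2.95e-06, 0.00156 and 0.000316).

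Slc6a13 (GAT2) takes up GABA and related amines across the basolateral membrane. It read 237.8, 273.4 and 455.8 in TIMP3-/- UUO kidneys, against 1867, 2862 and 2397 in TIMP3-/- sham kidneys. TIMP2-/- kidneys had 997, 962.1 and 1645 in TIMP2-/- UUO kidneys, against 3284, 3376 and 3465 in TIMP2-/- sham kidneys. WT kidneys had 838.2, 515.6 and 1387 in WT UUO kidneys, against 2500, 2745 and 2031 in WT sham kidneys. No TIMP3-/- UUO array reached an array of any other group. The differences were -2.92 ± 0.32 in TIMP3-/-, -1.54 ± 0.32 in TIMP2-/- and -1.51 ± 0.32 in WT (limma, adjusted p = 4.51e-06, 0.00234 and 0.00203).

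Slc3a1 (rBAT) is the heavy chain that pairs with Slc7a9 to take up cystine and basic amino acids, and loss of either causes cystinuria. Slc3a1 had 2013, 2316 and 3885 in TIMP3-/- UUO kidneys, against 9119, 8344 and 9045 in TIMP3-/- sham kidneys. TIMP2-/- kidneys showed 5113, 5208 and 6010 in TIMP2-/- UUO kidneys, against 8463, 8828 and 8170 in TIMP2-/- sham kidneys. WT kidneys showed 4592, 3082 and 5830 in WT UUO kidneys, against 8841, 9224 and 8271 in WT sham kidneys. The groups did not overlap, and the TIMP2-/- groups differed least. The differences were -1.75 ± 0.22 in TIMP3-/-, -0.64 ± 0.22 in TIMP2-/- and -1.01 ± 0.22 in WT (limma, adjusted p = 1.53e-05, 0.0343 and 0.00284). The TIMP2-/- call ended without any 1 of 5 of its 6 arrays, all but TIMP2-/- UUO 3, with differences of -0.67 to -0.60 (adjusted p 0.0695 to 0.106).

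The light chain Slc7a9 fell as well, by -2.44 ± 0.30 in TIMP3-/-, -1.19 ± 0.30 in TIMP2-/- and -1.12 ± 0.30 in WT. It averaged 1640 ± 626.4 in TIMP3-/- UUO kidneys and 8546 ± 1112 in TIMP3-/- sham kidneys (SD, n = 3). Its WT call ended without WT UUO 2 (-0.76, adjusted p = 0.0568).

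The basolateral pair of this class is formed by the heavy chain Slc3a2 (4F2hc) with the light chains Slc7a7 (y+LAT1) or Slc7a8 (LAT2). Slc7a7, which releases basic amino acids to the blood, differed by -2.65 ± 0.29 in TIMP3-/-, -1.39 ± 0.29 in TIMP2-/- and -1.19 ± 0.29 in WT. Slc7a8, which exchanges neutral amino acids, differed by -1.91 ± 0.23 in TIMP3-/-, -1.50 ± 0.23 in TIMP2-/- and -1.07 ± 0.23 in WT. Both passed in every genotype. The heavy chain Slc3a2, which many cell types make, averaged 3142 ± 780.3 in TIMP3-/- UUO kidneys and 5881 ± 740.5 in TIMP3-/- sham kidneys (SD, n = 3). Its differences were -0.93 ± 0.17 in TIMP3-/-, -0.59 ± 0.17 in TIMP2-/- and -0.42 ± 0.17 in WT, and the WT difference did not pass (limma, adjusted p = 0.0654). Slc3a2 passed in WT without WT UUO 3 (-0.53, adjusted p = 0.0352), and its TIMP2-/- call ended without TIMP2-/- UUO 1, TIMP2-/- UUO 2 or TIMP2-/- sham 3 (-0.56 to -0.53, adjusted p 0.054 to 0.0618).

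Slc1a1 (EAAT3) takes up glutamate and aspartate at the apical membrane. Its range was 980.3 to 1885 in TIMP3-/- UUO kidneys and 4472 to 5350 in TIMP3-/- sham kidneys. The differences were -1.92 ± 0.26 in TIMP3-/-, -0.68 ± 0.26 in TIMP2-/- and -1.32 ± 0.26 in WT. The TIMP2-/- difference missed the threshold (limma, adjusted p = 0.0521) and passed without TIMP2-/- UUO 3 (-0.83, adjusted p = 0.0322).

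Slc6a18 (XT2) is an apical carrier of neutral amino acids, glycine among them. It averaged 942.6 ± 422.5 in TIMP3-/- UUO kidneys and 3998 ± 516.9 in TIMP3-/- sham kidneys (SD, n = 3). The differences were -2.16 ± 0.29 in TIMP3-/-, -0.85 ± 0.29 in TIMP2-/- and -0.87 ± 0.29 in WT. The TIMP2-/- and WT calls were weak: leaving out any 1 of 5 TIMP2-/- arrays (all but TIMP2-/- UUO 3) gave -0.92 to -0.76 (adjusted p 0.0515 to 0.121). Leaving out WT UUO 1, WT UUO 2, WT sham 1 or WT sham 2 gave -0.84 to -0.61 in WT (adjusted p 0.0826 to 0.167).

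Slc6a6, the taurine transporter of many tissues, had the smallest differences of the amino acid carriers on its brightest probe set. There it averaged 2407 ± 146.3 in TIMP3-/- UUO kidneys and 3113 ± 358.5 in TIMP3-/- sham kidneys (SD, n = 3), a difference of -0.37 ± 0.15 that just passed (limma, adjusted p = 0.0379). That call ended without TIMP3-/- UUO 1, TIMP3-/- UUO 2, TIMP3-/- sham 1 or TIMP3-/- sham 3 (-0.38 to -0.28, adjusted p 0.0599 to 0.153). The WT difference did not pass, with a 95% interval of -0.31 to 0.31. The probe sets of Slc6a6 disagreed: the dimmer ones differed by -1.13 (adjusted p = 7.36e-05) and -0.65 (adjusted p = 0.00114) in TIMP3-/-, and in WT by -0.35 (adjusted p = 0.128) and -0.42 (adjusted p = 0.0315), by limma over all probe sets.

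The dicarboxylate carriers fell in each genotype, and the monocarboxylate carriers passed in WT alone. Slc13a3 (NaDC3) brings citrate cycle intermediates in from the blood. It had 1558, 1292 and 1934 in TIMP3-/- UUO kidneys, against 8454, 11041 and 9271 in TIMP3-/- sham kidneys. In TIMP2-/- kidneys it had 4946, 3613 and 6418 in TIMP2-/- UUO kidneys, against 10958, 9485 and 11610 in TIMP2-/- sham kidneys. In WT kidneys it had 2765, 1554 and 5728 in WT UUO kidneys, against 7166, 9206 and 8172 in WT sham kidneys. UUO and sham did not overlap, and WT UUO 3 came closest to its sham arrays. The differences were -2.60 ± 0.34 in TIMP3-/-, -1.13 ± 0.34 in TIMP2-/- and -1.48 ± 0.34 in WT (limma, adjusted p = 1.82e-05, 0.0177 and 0.00352). The TIMP2-/- call ended without TIMP2-/- UUO 1, TIMP2-/- UUO 2 or TIMP2-/- sham 3 (-1.15 to -0.92, adjusted p 0.0513 to 0.0922).

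Slc13a2 (NaDC1), the apical citrate carrier, averaged 311 ± 147.9 in TIMP3-/- UUO kidneys and 1873 ± 422.9 in TIMP3-/- sham kidneys (SD, n = 3). It differed by -2.66 ± 0.33 in TIMP3-/-, -1.41 ± 0.33 in TIMP2-/- and -1.18 ± 0.33 in WT. The WT call ended without WT UUO 2 (-0.81, adjusted p = 0.0726).

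Slc5a8 (SMCT1) takes up lactate and other monocarboxylates at the apical membrane. It had 426.1, 1098 and 385.8 in TIMP3-/- UUO kidneys, against 1939, 828.3 and 766.8 in TIMP3-/- sham kidneys. For TIMP2-/- the values were 746, 718 and 460 in TIMP2-/- UUO kidneys, against 1630, 1679 and 343.6 in TIMP2-/- sham kidneys. For WT they were 540.7, 417.3 and 699.4 in WT UUO kidneys, against 2209, 2568 and 4510 in WT sham kidneys. The groups overlapped in both knockouts and stood apart in WT. TIMP3-/- UUO 2 read above the other arrays of its group, and TIMP2-/- sham 3 was below all TIMP2-/- UUO arrays. The differences were -0.92 ± 0.56 in TIMP3-/-, -0.64 ± 0.56 in TIMP2-/- and -2.45 ± 0.56 in WT, and the WT one passed (limma, adjusted p = 0.00367). The WT difference was -2.14 without WT sham 3. Without TIMP2-/- sham 3 the TIMP2-/- difference was -1.40 and passed (adjusted p = 0.0439). Without TIMP3-/- UUO 2 the TIMP3-/- difference was -1.40 (adjusted p = 0.0558).

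Slc16a1 (MCT1), a lactate carrier of most tissues, averaged 1260 ± 349.7 in WT UUO kidneys and 2045 ± 107.2 in WT sham kidneys (SD, n = 3). Its differences were -0.02 ± 0.27 in TIMP3-/-, 0.19 ± 0.27 in TIMP2-/- and -0.74 ± 0.27 in WT. The WT call ended without any 1 of 5 WT arrays, all but WT UUO 2 (-0.76 to -0.53, adjusted p 0.0865 to 0.167).

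Of the 6 anion carriers 4 fell in TIMP3-/-, 4 fell and 1 rose in TIMP2-/-, and 5 fell in WT. Slc13a1 (NaS1) is the apical sodium sulfate cotransporter. It had 8843, 10823 and 13266 in TIMP3-/- UUO kidneys, against 10277, 11011 and 10202 in TIMP3-/- sham kidneys. TIMP2-/- arrays read 15291, 17501 and 16320 in TIMP2-/- UUO kidneys, against 11030, 9935 and 8284 in TIMP2-/- sham kidneys. WT arrays read 13418, 11135 and 13655 in WT UUO kidneys, against 11659, 14295 and 10817 in WT sham kidneys. In TIMP2-/- every UUO array was above every sham array, and in TIMP3-/- and WT the groups overlapped. The TIMP2-/- rise was 0.76 ± 0.16 (limma, adjusted p = 0.00251), where 15.9% of all genes rose. The differences were 0.05 ± 0.16 in TIMP3-/- (95% interval -0.29 to 0.38) and 0.06 ± 0.16 in WT (95% interval -0.28 to 0.40). The TIMP2-/- response minus the WT response was 0.70 ± 0.22 and did not pass (limma, adjusted p = 0.518).

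Slc26a1 (Sat1), which releases sulfate on the basolateral side, fell in each genotype. It averaged 347.5 ± 134 in TIMP3-/- UUO kidneys and 1951 ± 348.3 in TIMP3-/- sham kidneys (SD, n = 3). Its differences were -2.55 ± 0.34 in TIMP3-/-, -1.44 ± 0.34 in TIMP2-/- and -1.80 ± 0.34 in WT.

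Slc17a1 (NPT1) and Slc17a3 (NPT4) are apical carriers of urate and other organic anions. Slc17a3 averaged 3188 ± 864.9 in TIMP3-/- UUO kidneys and 15610 ± 247.8 in TIMP3-/- sham kidneys (SD, n = 3), and differed by -2.33 ± 0.28 in TIMP3-/-, -1.12 ± 0.28 in TIMP2-/- and -1.93 ± 0.28 in WT. Slc17a1 averaged 5190 ± 1255 in TIMP3-/- UUO kidneys and 15550 ± 323.7 in TIMP3-/- sham kidneys (SD, n = 3), and differed by -1.61 ± 0.22 in TIMP3-/-, -0.63 ± 0.22 in TIMP2-/- and -1.17 ± 0.22 in WT. Both passed in every genotype. The TIMP2-/- call of Slc17a1 ended without any 1 of 5 arrays, all but TIMP2-/- UUO 3 (-0.65 to -0.56, adjusted p 0.0646 to 0.119).

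Slco1a1 and Slco1a6 belong to the organic anion transporting polypeptides, which carry bile acids, steroid conjugates and drugs. Slco1a1 had 142.9, 163 and 101 in TIMP3-/- UUO kidneys, against 454.6, 241 and 246.8 in TIMP3-/- sham kidneys. In TIMP2-/- mice it had 210.2, 157.8 and 174.2 in TIMP2-/- UUO kidneys, against 657.8, 735.8 and 217.3 in TIMP2-/- sham kidneys. In WT mice it had 126, 119.5 and 193.5 in WT UUO kidneys, against 923.2, 582.2 and 2399 in WT sham kidneys. WT sham 3 was far above the other sham arrays, and no UUO array reached a sham array of its genotype. The differences were -1.17 ± 0.48 in TIMP3-/-, -1.40 ± 0.48 in TIMP2-/- and -2.93 ± 0.48 in WT (limma, adjusted p = 0.0442, 0.0345 and 0.000306). Without WT sham 3 the WT difference was -2.36. The TIMP3-/- call ended without any 1 of its 6 arrays (-1.33 to -0.87, adjusted p 0.054 to 0.156), and the TIMP2-/- call ended without any 1 of 5, all but TIMP2-/- sham 3 (-1.51 to -1.08, adjusted p 0.0589 to 0.131).

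Slco1a6 had 316.7, 806.4 and 208.2 in TIMP3-/- UUO kidneys, against 1662, 704 and 679.2 in TIMP3-/- sham kidneys. TIMP2-/- mice had 566.1, 570.2 and 432.5 in TIMP2-/- UUO kidneys, against 1235, 923.2 and 471.3 in TIMP2-/- sham kidneys. WT mice had 428, 195.3 and 614.1 in WT UUO kidneys, against 1737, 1342 and 4020 in WT sham kidneys. The knockout groups overlapped and the WT groups did not. The differences were -1.30 ± 0.56 in TIMP3-/-, -0.65 ± 0.56 in TIMP2-/- and -2.50 ± 0.56 in WT, and WT alone passed (limma, adjusted p = 0.00299). The WT difference was -2.04 without WT sham 3. Without TIMP3-/- UUO 2 the TIMP3-/- difference was -1.85 and passed (adjusted p = 0.0131).

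**Figure D3:**
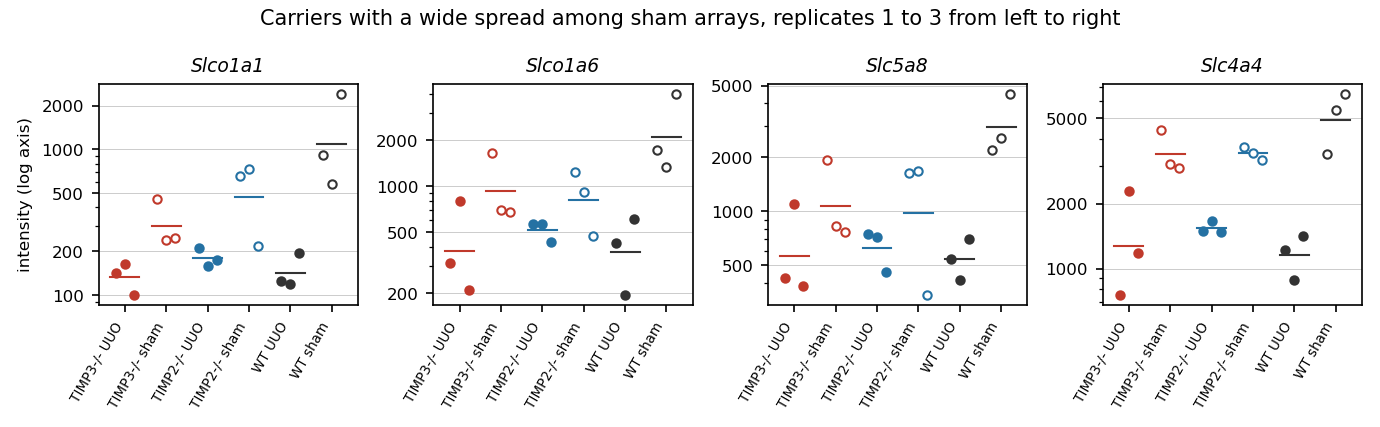
Intensity on a log axis on each array for 4 members with a wide spread among sham arrays. Filled points are UUO arrays, open points sham arrays, bars the geometric mean of 3 arrays, and WT sham 3 is the highest WT point in each panel.

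Slc5a8, Slco1a1 and Slco1a6 had the widest spreads among the sham arrays of a group. Slc5a8 spanned 4.89-fold within TIMP2-/- sham, Slco1a1 spanned 4.12-fold and Slco1a6 spanned 3-fold within WT sham. Over the 9 sham arrays Slco1a6 correlated most with Slc5a8 (Pearson r 0.934) and Slco1a1 (0.913). Its strongest inverse correlations were with Slc7a9 (-0.981) and Slc2a5 (-0.977). WT sham 3 and TIMP3-/- UUO 2 were the highest of their groups for Slco1a1, Slco1a6, Slc5a8 and Slc4a4, and both are among the arrays that stood apart. TIMP2-/- sham 3 was the lowest of its group for the same genes. What sets these arrays apart was not tested.

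Acid and base recovery is represented by Slc4a4 and by Slc9a3r1. Slc4a4 (NBCe1) passes bicarbonate to the blood with sodium. It had 756, 2285 and 1176 in TIMP3-/- UUO kidneys, against 4407, 3058 and 2945 in TIMP3-/- sham kidneys. The TIMP2-/- arrays had 1495, 1670 and 1477 in TIMP2-/- UUO kidneys, against 3680, 3457 and 3185 in TIMP2-/- sham kidneys. The WT arrays had 1221, 888.8 and 1412 in WT UUO kidneys, against 3396, 5436 and 6471 in WT sham kidneys. UUO and sham did not overlap, though TIMP3-/- UUO 2 came near its sham arrays. The differences were -1.43 ± 0.32 in TIMP3-/-, -1.15 ± 0.32 in TIMP2-/- and -2.09 ± 0.32 in WT (limma, adjusted p = 0.00157, 0.0127 and 0.000164). Without TIMP3-/- UUO 2 the TIMP3-/- difference was -1.85, and a further probe set of Slc4a4 did not pass in TIMP3-/- (-0.70, limma over all probe sets, adjusted p = 0.146).

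Slc9a3r1 (NHERF1) is no carrier but an adaptor that anchors NaPi-IIa and the sodium proton exchanger NHE3 at the brush border. It had 3512, 3006 and 4656 in TIMP3-/- UUO kidneys, against 8739, 11008 and 9921 in TIMP3-/- sham kidneys. Slc9a3r1 in TIMP2-/- had 6300, 5705 and 6842 in TIMP2-/- UUO kidneys, against 10105, 11282 and 11812 in TIMP2-/- sham kidneys. Slc9a3r1 in WT had 6207, 3993 and 7985 in WT UUO kidneys, against 9379, 10002 and 7144 in WT sham kidneys. The knockout groups stood apart, and WT UUO 3 overlapped with WT sham 3. The differences were -1.43 ± 0.22 in TIMP3-/-, -0.82 ± 0.22 in TIMP2-/- and -0.59 ± 0.22 in WT, and the WT one missed the threshold (limma, adjusted p = 0.0523). It passed without WT UUO 3 (-0.81, adjusted p = 0.00952) or without WT sham 3 (-0.73, adjusted p = 0.0365).

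The 3 remaining carriers fell in every genotype on the brightest probe set of each. Slc47a1 (MATE1) secretes organic cations into the filtrate in exchange for protons. It had 3152, 3262 and 4754 in TIMP3-/- UUO kidneys, against 12090, 13872 and 14720 in TIMP3-/- sham kidneys. Slc47a1 had 5731, 6200 and 8978 in TIMP2-/- UUO kidneys, against 15098, 15213 and 15361 in TIMP2-/- sham kidneys. In WT animals it had 5592, 3484 and 7971 in WT UUO kidneys, against 13079, 13688 and 11994 in WT sham kidneys. No UUO array overlapped with a sham array. The differences were -1.89 ± 0.25 in TIMP3-/-, -1.16 ± 0.25 in TIMP2-/- and -1.26 ± 0.25 in WT (limma, adjusted p = 1.82e-05, 0.00274 and 0.00114).

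Slc15a2 (PEPT2), the apical carrier of small peptides, averaged 743.3 ± 223.7 in TIMP3-/- UUO kidneys and 3355 ± 256.1 in TIMP3-/- sham kidneys (SD, n = 3), and differed by -2.21 ± 0.32 in TIMP3-/-, -1.02 ± 0.32 in TIMP2-/- and -1.30 ± 0.32 in WT. Without WT UUO 2 the WT difference was -0.81 (limma, adjusted p = 0.0204). Its second probe set differed by -0.70 in TIMP3-/- and did not pass (limma over all probe sets, adjusted p = 0.101). Slc23a1 (SVCT1), which recovers vitamin C, averaged 1721 ± 586.1 in TIMP3-/- UUO kidneys and 5610 ± 511.4 in TIMP3-/- sham kidneys (SD, n = 3), and differed by -1.76 ± 0.26 in TIMP3-/-, -0.81 ± 0.26 in TIMP2-/- and -1.22 ± 0.26 in WT. In TIMP2-/- the second probe sets of both genes overlapped between UUO and sham. The Slc15a2 one had 598.2, 684.6 and 479.8 in TIMP2-/- UUO kidneys, against 772.7, 964.1 and 595.5 in TIMP2-/- sham kidneys. The Slc23a1 one had 113.9, 133.8 and 128.8 in TIMP2-/- UUO kidneys, against 200.5, 167.8 and 100.9 in TIMP2-/- sham kidneys. On the brightest probe sets the TIMP2-/- calls of both genes were weak. That of Slc15a2 ended without any 1 of 5 arrays, all but TIMP2-/- UUO 3 (-1.03 to -0.94, adjusted p 0.0529 to 0.0853). That of Slc23a1 ended without TIMP2-/- UUO 1, TIMP2-/- UUO 2, TIMP2-/- sham 1 or TIMP2-/- sham 2 (-0.82 to -0.74, adjusted p 0.0643 to 0.0842).

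Proteins that work with these carriers moved in part. Of 20 partners and regulators, 15 were measured. In TIMP3-/- kidneys 9 fell and 1 rose, in TIMP2-/- 7 fell and 1 rose, and in WT 5 fell and 2 rose. Over all genes 38.8% fell in TIMP3-/-, 22% in TIMP2-/- and 16.2% in WT, while 3187, 1969 and 2078 of 12393 rose. Their median difference was -0.85 in TIMP3-/-, -0.32 in TIMP2-/- and -0.44 in WT. The largest changes were those of Car14 (-4.31 ± 0.45 in TIMP3-/-, -2.62 ± 0.45 in TIMP2-/- and -2.39 ± 0.45 in WT) and Car4 (-2.94 ± 0.35 in TIMP3-/-, -1.26 ± 0.35 in TIMP2-/- and -1.63 ± 0.35 in WT), the carbonic anhydrases of the tubule membranes that serve bicarbonate recovery.

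Pdzk1, a scaffold that binds NaPi-IIa and several organic anion carriers, had 2105, 2139 and 3865 in TIMP3-/- UUO kidneys, against 10094, 10140 and 9996 in TIMP3-/- sham kidneys, and differed by -1.96 ± 0.23 in TIMP3-/-, -0.97 ± 0.23 in TIMP2-/- and -1.20 ± 0.23 in WT. Hnf4a, the nuclear receptor that can bind the direct repeat searched for above, had 2350, 2809 and 4225 in TIMP3-/- UUO kidneys, against 10699, 10944 and 11018 in TIMP3-/- sham kidneys, and differed by -1.84 ± 0.20 in TIMP3-/-, -0.87 ± 0.20 in TIMP2-/- and -0.996 in WT. Both fell in each genotype, with UUO arrays below sham arrays throughout. Stc1, which encodes the hormone stanniocalcin, rose in TIMP2-/- (0.93 ± 0.17) and in WT (0.49 ± 0.17) and did not pass in TIMP3-/- (0.34 ± 0.17, limma, adjusted p = 0.0984).

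Relatives of the members moved both ways. Of 50 other carriers of the same families, 41 were measured. In TIMP3-/- kidneys 20 fell and 9 rose, in TIMP2-/- 15 fell and 6 rose, and in WT 10 fell and 8 rose. Over all genes 38.8% fell in TIMP3-/-, 22% in TIMP2-/- and 16.2% in WT. Of the 12393 genes 3187, 1969 and 2078 rose in that order. Their median difference was -0.38 in TIMP3-/-, -0.26 in TIMP2-/- and -0.14 in WT. The largest falls in TIMP3-/- were those of Slc4a1 (-3.71 ± 0.57), the chloride bicarbonate exchanger of red cells and intercalated cells, Slc16a7 (-2.53 ± 0.31), the monocarboxylate carrier MCT2, Slc9a8 (-2.50 ± 0.28), the sodium proton exchanger NHE8, and Slc26a4 (-2.43 ± 0.29), the pendrin of intercalated cells. Slc15a3, a peptide and histidine carrier of lysosomes in immune cells, rose by 1.90 ± 0.23 in TIMP3-/-, 1.88 ± 0.23 in TIMP2-/- and 2.17 ± 0.23 in WT. Of 14 other proximal tubule markers, 13 fell in TIMP3-/-, 12 in TIMP2-/- and 12 in WT, with medians of -2.04, -1.002 and -1.24. The 14 include Keap1, which many cell types make and which did not pass in TIMP2-/- (-0.19) or in WT (0.13). Among the 14, Hpd, an enzyme of tyrosine breakdown, fell most in TIMP3-/- (-5.20 ± 0.61). Next came Miox (-2.60 ± 0.37), which breaks down inositol, and the endocytic receptors Cubn (-2.58 ± 0.25) and Lrp2 (-2.46 ± 0.25).

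The obstructed kidneys of the genotypes were then set against each other. Against TIMP2-/- UUO kidneys 21 of the 32 members were lower and none higher, where 6.09% of all genes were lower. The median difference of the members was -1.05. All TIMP3-/- UUO arrays lay below all TIMP2-/- UUO arrays for 25 members, where 21.1% of all genes did so.

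All 5 sugar carriers were lower, with Slc5a2 at 864.5, 912.2 and 1386 in TIMP3-/- UUO kidneys against 2819, 3136 and 5573 in TIMP2-/- UUO kidneys, a difference of -1.83 ± 0.33 (limma, adjusted p = 0.0117). Slc2a5 differed by -1.81 ± 0.43 and Slc37a4 by -1.48 ± 0.32. Of the 10 amino acid carriers 7 were lower. Slc6a13 had 237.8, 273.4 and 455.8 in TIMP3-/- UUO kidneys against 997, 962.1 and 1645 in TIMP2-/- UUO kidneys, and its difference of -1.91 ± 0.32 had the smallest adjusted p of the members (limma, 0.00929). Slc6a20b differed by -1.83 ± 0.36. In these carriers no TIMP3-/- UUO array reached a TIMP2-/- UUO array.

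Both dicarboxylate carriers were lower, Slc13a3 by -1.63 ± 0.34 and Slc13a2 by -1.31 ± 0.33, and neither monocarboxylate carrier passed. Of the anion carriers Slc26a1 (-1.26 ± 0.34), Slc17a3 (-1.29 ± 0.28), Slc17a1 (-0.94 ± 0.22) and Slc13a1 (-0.59 ± 0.16) were lower, and the organic anion transporting polypeptides did not pass. Neither phosphate carrier passed, although their arrays did not overlap: Slc34a1 differed by -1.05 ± 0.32 (limma, adjusted p = 0.0569) and Slc20a2 by -0.54 ± 0.18 (0.0708). Slc9a3r1 (-0.77 ± 0.22), Slc15a2 (-1.47 ± 0.32) and Slc47a1 (-0.90 ± 0.25) were lower, and Slc4a4 and Slc23a1 did not pass. The second probe set of Slc15a2 overlapped, with 286.8, 863.5 and 343.6 in TIMP3-/- UUO kidneys against 598.2, 684.6 and 479.8 in TIMP2-/- UUO kidneys. Slc6a6 alone had a positive difference (0.32 ± 0.15, adjusted p = 0.143), while its dimmer probe sets gave -0.08 and -0.16.

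The count of 21 depended on single arrays and on the pooled spread. It was 0 when the fit held the arrays of those 2 groups alone, and 0 without TIMP3-/- UUO 1, without TIMP3-/- UUO 2 or without TIMP2-/- UUO 3. It was 12 without TIMP2-/- UUO 1 or without TIMP2-/- UUO 2, and 25 without TIMP3-/- UUO 3. The other proximal tubule markers moved with the carriers, as 10 of 14 were lower in TIMP3-/- UUO, Hpd (-2.67 ± 0.61) and Miox (-1.57 ± 0.37) the most. Their sum was 54637 to 69564 in TIMP3-/- UUO kidneys against 102530 to 132620 in TIMP2-/- UUO kidneys, while the macrophage markers, of which none passed, summed to 71441 to 102960 in TIMP3-/- UUO kidneys against 57157 to 57582 in TIMP2-/- UUO kidneys. Their part in the result was not tested. Of the partners and regulators 6 of 15 were lower, among them Car4 (-1.83 ± 0.35), Car14 (-1.69 ± 0.45) and Pdzk1 (-1.20 ± 0.23), and of the same-family carriers 1 of 41 was lower. Over all genes 6.09% were lower.

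Against WT UUO kidneys no member passed in TIMP3-/- UUO kidneys (limma), where 0.395% of all genes did, and 20 members had an unadjusted p below 0.05, as did 20.6% of all genes. The median difference was -0.64. Slc5a2 came closest, at 864.5, 912.2 and 1386 in TIMP3-/- UUO kidneys against 3140, 1646 and 5079 in WT UUO kidneys, with a difference of -1.53 ± 0.33 (limma, adjusted p = 0.0574). Slc6a13 (-1.45 ± 0.32, adjusted p = 0.0617) and Slc7a7 (-1.24 ± 0.29, adjusted p = 0.0699) also had arrays that did not overlap, and 6.41% of all genes lay below WT UUO in this way. This comparison and that with TIMP2-/- UUO share the TIMP3-/- UUO arrays.

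WT UUO 2, the array with hepatocyte transcripts, changed that count. Summed over 16 hepatocyte markers, intensity was 9891.1 to 12691 in TIMP3-/- UUO kidneys, against 15183 to 118940 in WT UUO kidneys, with WT UUO 2 the highest. The part of hepatocyte transcripts in the result was not tested. WT UUO 2 was the lowest WT UUO array for 30 of the 32 members, where that held for 47.4% of all genes. Without it 20 members were lower in TIMP3-/- UUO than in WT UUO and none higher, where 7.24% of all genes were lower. Slc5a2 then differed by -1.96 (limma, adjusted p = 0.00406), Slc6a13 by -1.80 and Slc2a5 by -1.79. The 20 held all 5 sugar carriers, Slc34a1, 8 amino acid carriers, both dicarboxylate carriers, Slc17a1, Slc9a3r1, Slc15a2 and Slc47a1. The count was 15 without TIMP3-/- UUO 3 and 10 without all 3 arrays that stood apart.

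**Figure D4:**
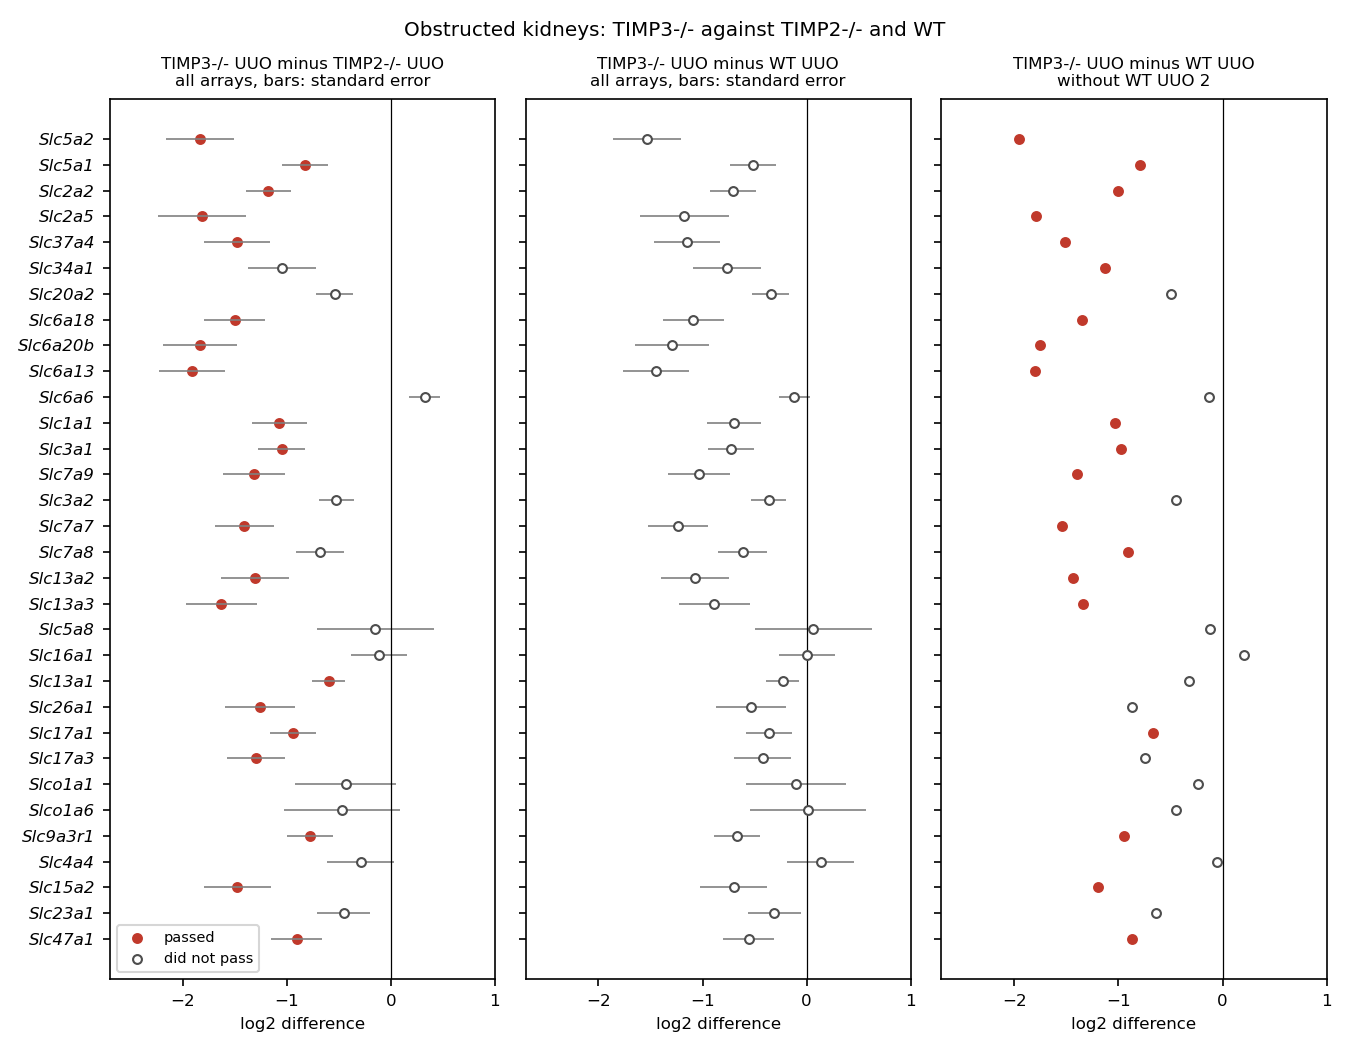
Log2 differences among obstructed kidneys (x axes) for the 32 members (y axis): TIMP3-/- minus TIMP2-/- (left), TIMP3-/- minus WT (middle) and the same without WT UUO 2 (right). Filled points passed (21, 0 and 20 of 32), and bars in the left and middle panels are standard errors.

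**Figure D5:**
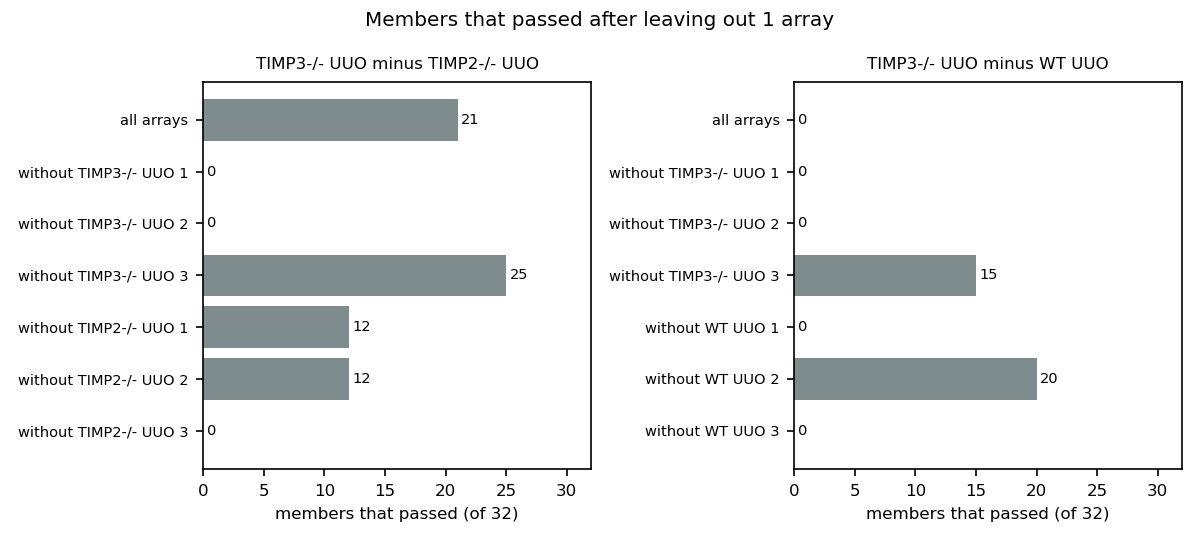
Number of the 32 members that passed (x axes, from 0) when 1 array was left out (y axis), for TIMP3-/- UUO minus TIMP2-/- UUO (left) and TIMP3-/- UUO minus WT UUO (right). The left count spans 0 to 25 and the right count 0 to 20.

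Between TIMP2-/- UUO and WT UUO kidneys no member passed (limma, 0 of 32, where 0.0242% of all genes passed), and 8 members had an unadjusted p below 0.05, as did 3.32% of all genes. The median difference was 0.33 and 31 of 32 were above 0, as were 60.3% of all genes. Both rested on WT UUO 2: without it the median was 0.04, 22 of 32 were above 0, as were 53.2% of all genes, and 2 members had an unadjusted p below 0.05. Slc17a3 had the largest, 0.87 ± 0.28 with an unadjusted 95% interval of 0.29 to 1.46 (limma, adjusted p = 0.999). Without WT UUO 2 it was 0.54, and without WT UUO 3 it was 1.29 and the 1 member that passed (adjusted p = 0.0355). By their means the obstructed groups stood in the order TIMP3-/-, WT, TIMP2-/- from low to high for 27 of 32 members, as for 39.4% of all genes. Slc5a8, Slc16a1, Slco1a6, Slc4a4 and Slc6a6 had another order. Without WT UUO 2 the order held for 21 members (27.4% of all genes), and TIMP3-/-, TIMP2-/-, WT held for 9 (27%). Within the obstructed groups, the third array was the highest for 27 members in TIMP3-/- (51% of all genes), 24 in TIMP2-/- (56.3%) and 30 in WT (44.3%).

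The sham kidneys of the genotypes were compared in the same way. Between TIMP3-/- sham and WT sham no member passed (limma, 0 of 32, where 0.0161% of all genes passed), and 4 members had an unadjusted p below 0.05, as did 10.4% of all genes. Between TIMP2-/- sham and WT sham none passed either (limma, 0 of 32, where 0.00807% of all genes passed), and 6 had an unadjusted p below 0.05, as did 27.8% of all genes. All TIMP2-/- sham arrays lay above all WT sham arrays for 17 members (29.9% of all genes) and below them for 5 (14.9%). Slc5a8 had 1939, 828.3 and 766.8 in TIMP3-/- sham and 1630, 1679 and 343.6 in TIMP2-/- sham, against 2209, 2568 and 4510 in WT sham. Slco1a1 had 454.6, 241 and 246.8 in TIMP3-/- sham and 657.8, 735.8 and 217.3 in TIMP2-/- sham, against 923.2, 582.2 and 2399 in WT sham. Their differences from WT sham were -1.46 ± 0.56 and -1.86 ± 0.48 in TIMP3-/- (limma, adjusted p = 0.476 for both), and -1.59 ± 0.56 and -1.21 ± 0.48 in TIMP2-/-.

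Whether the response to obstruction itself differed between genotypes was tested as the difference of the differences. No member passed for TIMP3-/- minus WT (0% of all genes), for TIMP2-/- minus WT (0%) or for TIMP3-/- minus TIMP2-/- (0.00807%), by limma. The unadjusted p was below 0.05 for 15, 5 and 20 members in that order, against 26.7%, 9.56% and 10.7% of all genes, and the smallest adjusted p was 0.163, 0.518 and 0.282. The TIMP3-/- response was the more negative for 27 of 32 members against WT, as for 65.7% of all genes, with a median of -0.73. Against TIMP2-/- it was the more negative for 31 of 32, as for 57.9% of all genes, with a median of -1.04. Slc5a2 differed by -1.59 ± 0.46 against WT and by -1.48 ± 0.46 against TIMP2-/-. The 5 with the opposite sign against WT were Slco1a1 (1.76), Slc5a8 (1.52), Slco1a6 (1.20), Slc16a1 (0.71) and Slc4a4 (0.67), the first 3 with the widest sham spread. Without the 3 arrays that stood apart, Slco1a1 differed by 0.91, Slc5a8 by 0.55 and Slc16a1 by 0.98, while Slco1a6 (-0.28) and Slc4a4 (-0.14) were below 0. Without these arrays 29 of 32 members were below 0 against WT, as were 57.4% of all genes, with a median of -0.85. Without TIMP3-/- UUO 3, 8 members passed against WT and 4 against TIMP2-/-.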

How the data were processed

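Kidney RNA of 18 samples was measured on 1 array each. The authors deposited linear intensities per probe set, made with RMA per the submitters' processing notes. No version of RMA and no genome build is named in those notes or the labels. RMA quantile-normalizes the arrays, which removes any shift common to all transcripts. The deposited intensities were put on a log2 scale. Of 22690 probe sets, 20380 have 1 gene symbol, 691 several and 1555 none, and 64 are controls. The brightest probe set with a symbol alone stood for each of 12393 genes.

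Group means were fitted with limma 3.58.1 in R 4.3.3 (lmFit, eBayes) over all 18 arrays, with 12 residual degrees of freedom, and 11 comparisons were each adjusted over all genes by Benjamini-Hochberg, at 0.05. The number of arrays limits the precision. The scripts were tested on simulated data. Replicate numbers in the labels gave no clear pairing: same-numbered pairs had correlations of -0.613 to 0.673 (median 0.132), and 24 of 45 were over 0.1. Pairs of different number had -0.749 to 0.737 (median -0.105), and 39 of 90 were over 0.1. What arrays of the same number share was not tested.

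The members and lists were chosen with earlier results of these data known. Values on every array are given for the brightest member of each substrate class and for the 5 largest falls and 3 largest rises per genotype among members that passed. Other genes come from the lists, at most 4 a list and comparison by size of change, with Pdzk1 and Hnf4a also by array. Alternatives were the replicate block, the choice of probe set, a filter on dim genes, the arrays in the fit, the normalization, an intensity trend and leaving out arrays. Promoters are RefSeq's, of GRCm38.p6, and all 32 members matched RefSeq by gene ID, with the same symbol. Of 37 promoters of members, 14 had a start equal to the RefSeq gene start. A second promoter motif was searched and is not reported here.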

Additional observations from a re-analysis of the deposited data

How the results depend on the processing

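No member's call turned its direction under any alternative. Between UUO and sham the number of members that passed stayed within 1.5 times of 27 in TIMP3-/-, 25 in TIMP2-/- and 26 in WT, and leaving out 1 array gave 25 to 27, 17 to 25 and 23 to 28. For TIMP3-/- UUO minus TIMP2-/- UUO the count of 21 became 0 with only the arrays of the groups compared and 0 to 25 with 1 array left out. For TIMP3-/- UUO minus WT UUO the count of 0 became 3 with the replicate block, 1 with probe sets ending _x_at or _s_at left out, 10 without the 3 arrays that stand apart and 0 to 20 with 1 array left out. For TIMP2-/- UUO minus WT UUO leaving out 1 array gave 0 to 1. The differences of UUO responses gave 0 to 8 (TIMP3-/- minus WT), 0 to 0 (TIMP2-/- minus WT) and 0 to 4 (TIMP3-/- minus TIMP2-/-). The cause of these changes was not tested, though a fit of 2 groups holds fewer arrays. The replicate block gave 26, 26 and 27 members between UUO and sham in TIMP3-/-, TIMP2-/- and WT and 24 for TIMP3-/- UUO minus TIMP2-/- UUO. Only 8 of 18 arrays correlated best with arrays of their own number, so the block stands for a shared number and no known pairing. Centring each array on its median moved the median of all genes between UUO and sham to -0.42 in TIMP3-/-, -0.33 in TIMP2-/- and -0.28 in WT, and 29, 27 and 29 members then passed.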
